A study of Rattus norvegicus with 18 samples.

Results

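The 7 genes described here make, recycle or use the cell's main thiol reductants, and their response to cigarette smoke was followed in whole rat lung. Gclc, Gclm, Gsr, Gpx1 and Ggt1 belong to the glutathione cycle, and Txn1 and Txnrd1 to the thioredoxin cycle. They were taken by symbol from the probe annotation of the array, where they hold 22 of 11994 rows and are 7 of 4616 named genes. The rows of each gene repeat 1 distinct probe, and every gene has a value in all 18 samples.

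Each value is a log2 ratio of lung RNA from smoke-exposed rats over lung RNA from rats breathing conditioned fresh air, so 0 is the level in air and 1 is a doubling. Rats breathed diluted smoke through the nose only, at 300 (low dose) or 600 (high dose) µg of total particulate matter (TPM) per litre, in 2 sessions of 1 hour a day with a break of 30 minutes, on 5 days a week. Exposure went on for 2, 7 or 13 weeks and lungs were taken 2, 6 or 20 hours after its end, so each dose has 9 combinations of duration and time. A sample is a pool of 4 exposed rats set against a pool of 4 air rats, and within a combination both doses were set against the same air pool. No condition had a second sample, so the spread behind every error given below is that between combinations, and a standard error (SE) against air also holds real change with time. Strain, age and sex were not in the labels used here. Smoke RNA always carried Cy5 and air RNA Cy3, so a constant dye effect would add to a value against air but cancels between doses, hours or weeks. That ratios run as smoke over air was read from the channel labels. In whole lung, fewer cells of a type and less RNA per cell cannot be told apart, and ratios carry no level with which the tissue could be checked against its markers.

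Glutathione is a tripeptide that detoxifies peroxides and electrophiles. Glutamate-cysteine ligase, built from the catalytic subunit Gclc and the modifier subunit Gclm, carries out the limiting step of its synthesis, and Ggt1 breaks down glutathione outside the cell so that its amino acids can be taken up again. Gpx1 spends glutathione on peroxides and Gsr returns the oxidised form with NADPH. Thioredoxin (Txn1) reduces disulfides in proteins and is itself reduced by Txnrd1, a selenoprotein that uses NADPH. Several of these genes are textbook targets of the transcription factor NRF2, which binds an antioxidant response element in promoters.

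Promoter sequence from RefSeq (build GRCr8) was matched by symbol for 6 of the 7 genes, in 7 windows of 250 bases before to 50 bases after a start site, with 2 windows for Txnrd1. Gsr had no window. The core of the antioxidant response element, written TGACNNNGC and searched on both strands, was found in 2 of the 7 windows, those of Gclm and of the second Txnrd1 start. Of 33469 windows of the same length 12.1% hold it, and of the 3932 windows of genes on the array 15.0%. The stretches before the start are shown because both genes are among those whose response changed with the hours since exposure, and capitals mark the match, which reads TGACTAAGC for Gclm and TGACAAAGC for Txnrd1 on the other strand. The windows of Gclc and Ggt1, whose response also changed with the hours, held no match, nor did the first Txnrd1 window. The Gclm stretch is chr2:213031885-213032134 on the plus strand, with the match starting at base -172 from the start site. The Txnrd1 stretch is chr7:22755905-22756154 on the minus strand, with the match at base -78.
Gclm: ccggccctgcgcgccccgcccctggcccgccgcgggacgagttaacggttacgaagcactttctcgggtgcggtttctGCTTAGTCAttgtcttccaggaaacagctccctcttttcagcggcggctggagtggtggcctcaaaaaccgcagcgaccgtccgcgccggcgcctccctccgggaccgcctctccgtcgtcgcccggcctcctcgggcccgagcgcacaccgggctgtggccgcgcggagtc
Txnrd1: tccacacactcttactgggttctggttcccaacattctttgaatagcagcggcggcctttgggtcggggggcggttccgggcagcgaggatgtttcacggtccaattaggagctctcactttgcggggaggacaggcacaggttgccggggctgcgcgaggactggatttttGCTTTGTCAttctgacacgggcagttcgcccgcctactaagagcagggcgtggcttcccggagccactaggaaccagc
A looser form of the core, TGANNNNGC, which includes every match of the first form, added only Gpx1 (TGAGTAAGC at base -222). This gave 3 of 7 windows (42.9%) against 40.5% of all windows and 44.3% of the windows of genes on the array. A match is a description of letters and not evidence of binding, and the windows without a match, such as that of Gclc, which lies mostly inside the annotated gene, say nothing of sequence farther away.

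Against air, 5 of the 7 genes rose at the high dose and 3 at the low dose. Ggt1 rose most at both doses, Txn1 and Gclc rose at both, and Txnrd1 and Gsr passed the test at the high dose. Gclm and Gpx1 passed it at neither dose. The test was limma's on 4016 genes with a threshold of 0.05 on the Benjamini-Hochberg adjusted p. At the high dose it called 9.56% of genes higher and 7.64% lower, and at the low dose 3.51% higher and 1.44% lower. The median of the 7 genes was 0.51 at the high dose and 0.29 at the low dose, beside 0.0033 and -0.0022 over all genes tested.

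**Figure D1:**
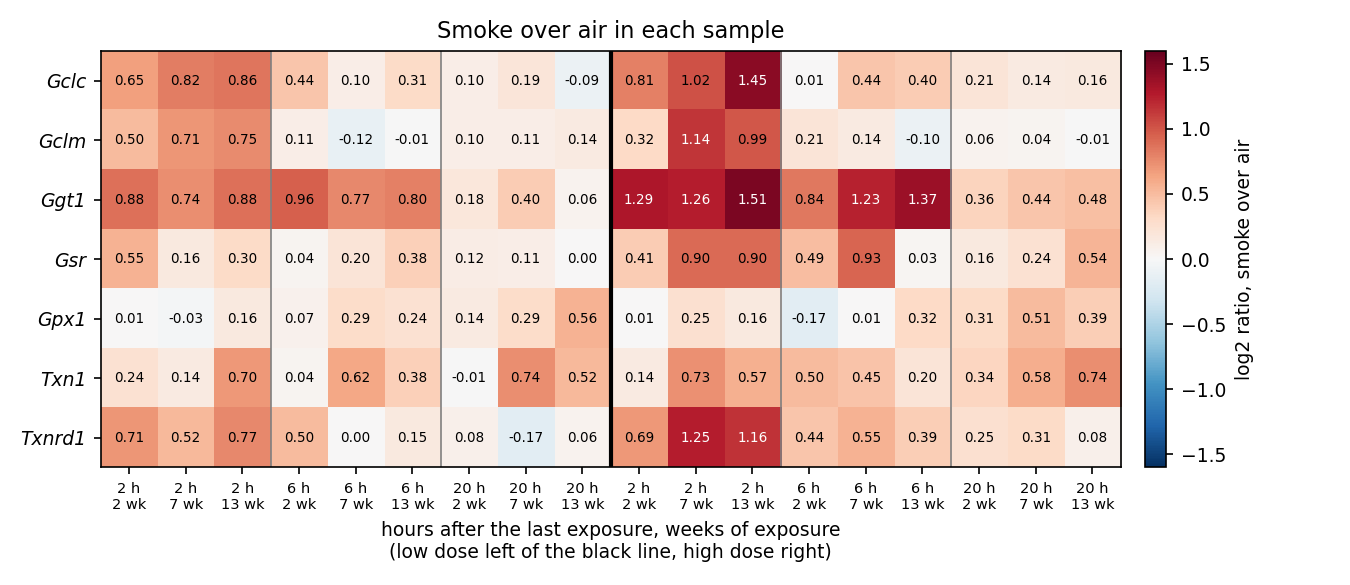
Log2 ratio of smoke over air for the 7 genes (rows) in each of the 18 samples (columns), with the value printed in each cell; red is above air and blue below. Columns run by dose, then hours after the last exposure, then weeks of exposure. The highest value is that of Ggt1 at the high dose, 2 hours and 13 weeks (1.51), and the lowest are the -0.17 of Txnrd1 (low dose, 20 hours, 7 weeks) and of Gpx1 (high dose, 6 hours, 2 weeks).

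Both subunits of glutamate-cysteine ligase were highest at 2 hours, and at 6 hours Gclm averaged 0.04 and Gclc 0.28. At 2 hours after exposure, the log2 ratio of the catalytic subunit Gclc was 0.65, 0.82 and 0.86 after 2, 7 and 13 weeks at the low dose and 0.81, 1.02 and 1.45 at the high dose. Its ratio at 6 hours was 0.44, 0.10 and 0.31 at the low dose and 0.01, 0.44 and 0.40 at the high dose. By 20 hours it was 0.10, 0.19 and -0.09 at the low dose and 0.21, 0.14 and 0.16 at the high dose. Every 2-hour sample thus lay above every 6-hour and every 20-hour sample, while the 6-hour and 20-hour samples overlapped. The highest sample, 13 weeks at the high dose, was 2.73-fold above air.

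The modifier subunit Gclm had log2 ratios of 0.50, 0.71 and 0.75 at 2 hours at the low dose and 0.32, 1.14 and 0.99 at the high dose, after 2, 7 and 13 weeks. Its ratios at 6 hours were 0.11, -0.12 and -0.01 at the low dose and 0.21, 0.14 and -0.10 at the high dose. They were 0.10, 0.11 and 0.14 at the low dose and 0.06, 0.04 and -0.01 at the high dose at 20 hours. Gclm too was higher in all 2-hour samples than in any later sample. Averaged over the 9 combinations, Gclc rose 1.43-fold at the high dose (mean log2 ratio 0.52 ± 0.13 SE, n = 9, adjusted p = 0.0128, with 9 of 9 samples above air) and 1.30-fold at the low dose (0.38 ± 0.09, 8 of 9 samples, adjusted p = 0.0332). For Gclm the means were 0.31 ± 0.12 (adjusted p = 0.0912) and 0.25 ± 0.09 (adjusted p = 0.124), each above air in 7 of 9 samples. The Gclc mean was smaller without the 2-hour samples, at 0.23 at the high dose (adjusted p = 0.0758) and 0.18 at the low dose (adjusted p = 0.312). Its high-dose call was also lost without the 7-week samples (adjusted p = 0.0914) or the 13-week samples (adjusted p = 0.0617), and its low-dose call without the 2-week (0.136), 7-week (0.125), 13-week (0.118) or 6-hour samples (0.102), when centred on the reference genes (0.075), and when any of 5 single combinations was left out (adjusted p up to 0.0881), namely the 2-hour combination at each number of weeks and the 6-hour combination at 2 or 13 weeks.

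Ggt1, which starts the salvage of extracellular glutathione, was the only gene of the 7 above air in all 18 samples. Its log2 ratio at 2 hours was 0.88, 0.74 and 0.88 at the low dose and 1.29, 1.26 and 1.51 at the high dose, after 2, 7 and 13 weeks. At 6 hours it was still 0.96, 0.77 and 0.80 at the low dose and 0.84, 1.23 and 1.37 at the high dose. It came down to 0.18, 0.40 and 0.06 at the low dose and 0.36, 0.44 and 0.48 at the high dose at 20 hours. The 2-hour and 6-hour samples overlapped, and all of them lay above all 20-hour samples. The high-dose mean was 1.97-fold (log2 0.98 ± 0.12, adjusted p = 9.74e-05) and the low-dose mean 1.55-fold (0.63 ± 0.09, adjusted p = 0.00128). At the low dose the call was lost without the 2-hour samples (0.53, adjusted p = 0.0543).

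Gsr, which regenerates reduced glutathione, had its highest values in scattered samples. Its log2 ratio at 2 hours was 0.55, 0.16 and 0.30 at the low dose and 0.41, 0.90 and 0.90 at the high dose, after 2, 7 and 13 weeks. At 6 hours these values were 0.04, 0.20 and 0.38 at the low dose and 0.49, 0.93 and 0.03 at the high dose. The 20-hour values were 0.12, 0.11 and 0.00 at the low dose and 0.16, 0.24 and 0.54 at the high dose. No sample was below air, and the 3 groups of hours overlapped each other. The high-dose mean rose 1.43-fold (log2 0.51 ± 0.09, 9 of 9 samples above air, adjusted p = 0.00229), and the low-dose mean was 0.21 ± 0.06 (8 of 9 samples, adjusted p = 0.0727).

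Gpx1, the peroxidase that oxidises glutathione, had the smallest mean ratio of the glutathione genes over the 18 samples (0.20). At 2 hours its ratios were 0.01, -0.03 and 0.16 at the low dose and 0.01, 0.25 and 0.16 at the high dose, after 2, 7 and 13 weeks. The 6-hour ratios were 0.07, 0.29 and 0.24 at the low dose and -0.17, 0.01 and 0.32 at the high dose. At 20 hours Gpx1 was at 0.14, 0.29 and 0.56 at the low dose and 0.31, 0.51 and 0.39 at the high dose. Its highest values were thus at 20 hours, where those of Gclc and Gclm were lowest or close to it, though its groups of hours overlapped. Its mean was 0.20 ± 0.07 at the high dose (adjusted p = 0.0561) and 0.19 ± 0.06 at the low dose (adjusted p = 0.0983), above air in 8 of 9 samples at each dose. Leaving out the combination of 2 weeks and 6 hours, where the high-dose sample was below air, brought the high-dose mean to 0.25 (adjusted p = 0.0202). This mean also passed the threshold without the 2-week samples (0.27, adjusted p = 0.0313) or the 6-hour samples (0.27, adjusted p = 0.0292). In the other direction, it was 0.10 without the 20-hour samples (adjusted p = 0.46) and 0.10 centred on the reference genes (adjusted p = 0.337). The high-dose mean of Gpx1 passed in 5 of 23 alternative settings.

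The thioredoxin pair did not move together over the hours. Thioredoxin itself, Txn1, had log2 ratios at 2 hours of 0.24, 0.14 and 0.70 at the low dose and 0.14, 0.73 and 0.57 at the high dose, after 2, 7 and 13 weeks. At 6 hours they were 0.04, 0.62 and 0.38 at the low dose and 0.50, 0.45 and 0.20 at the high dose. The 20-hour values of Txn1 were -0.01, 0.74 and 0.52 at the low dose and 0.34, 0.58 and 0.74 at the high dose. Values as high as 0.70 occurred at 2 and at 20 hours, and the groups of hours overlapped. Txn1 rose 1.39-fold at the high dose (0.47 ± 0.07, 9 of 9 samples, adjusted p = 0.000311) and 1.30-fold at the low dose (0.37 ± 0.08, 8 of 9 samples, adjusted p = 0.0158). The low-dose call was lost without the combination of 13 weeks and 2 hours (0.33, adjusted p = 0.0526) and without the samples of 7 weeks (0.31, 0.139), 13 weeks (0.30, 0.258), 2 hours (0.38, 0.101), 6 hours (0.39, 0.0675) or 20 hours (0.35, 0.063), each given as the mean and its adjusted p.

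The reductase Txnrd1 had log2 ratios of 0.71, 0.52 and 0.77 at the low dose and 0.69, 1.25 and 1.16 at the high dose at 2 hours, after 2, 7 and 13 weeks. At 6 hours it was at 0.50, 0.00 and 0.15 at the low dose and 0.44, 0.55 and 0.39 at the high dose. The ratios at 20 hours were 0.08, -0.17 and 0.06 at the low dose and 0.25, 0.31 and 0.08 at the high dose. All 2-hour samples lay above all 20-hour samples, with the 6-hour samples between and overlapping both. Txnrd1 rose 1.48-fold at the high dose (0.57 ± 0.11, 9 of 9 samples, adjusted p = 0.0028), and its low-dose mean was 0.29 ± 0.09 (7 of 9 samples, adjusted p = 0.0979). Of 23 alternative settings, the low-dose mean passed the threshold in 1, without the 20-hour samples (0.44, adjusted p = 0.0371). It was 0.10 without the 2-hour samples (adjusted p = 0.603) and 0.22 centred on the reference genes (adjusted p = 0.202). Txnrd1 exceeded Txn1 by 0.43 at 2 hours on average (above it in 6 of 6 samples) and was 0.38 below it at 20 hours (below in 5 of 6), as differences of log2 ratios between probes of different genes, which compare changes and not levels.

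**Figure D2:**
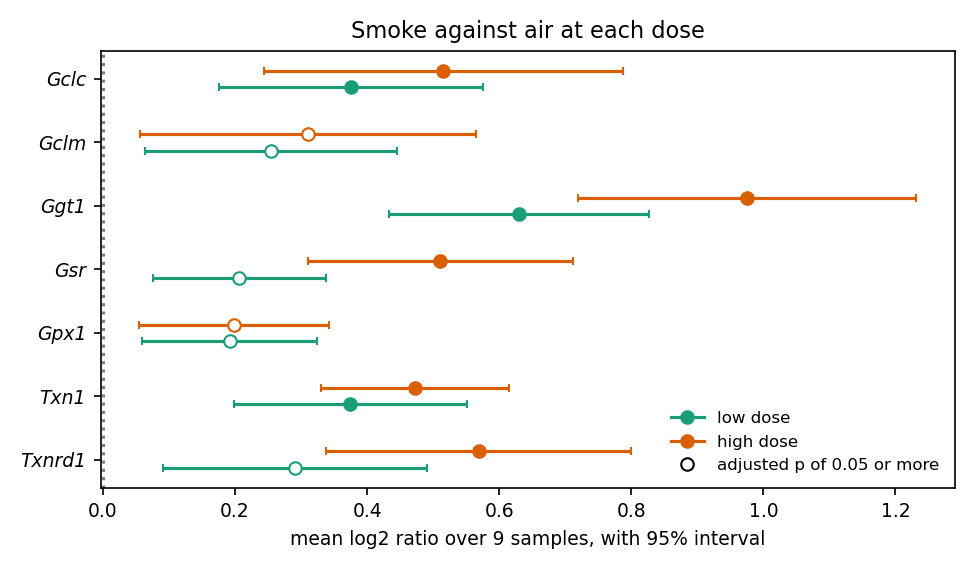
Mean log2 ratio of smoke over air over the 9 combinations for each gene at the low and the high dose, with 95% intervals from limma; open points have an adjusted p of 0.05 or more. All 14 means are above 0, and the low-dose and high-dose intervals overlap for every gene.

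The direct comparison of the doses used the 9 pairs of samples that share an air pool, so that the pool and a constant dye effect cancel. None of the 7 genes passed the limma test at an adjusted p of 0.05. An unadjusted p under 0.05 was found for 3 of them (Ggt1, Txnrd1 and Gsr), and for 398 of all 4016 genes tested. Of all 4016 genes tested 7 were called, 6 of them (0.149% of genes) higher at the high dose. Ggt1 was higher at the high dose in 8 of 9 pairs, by 0.35 on the log2 scale (95% interval 0.17 to 0.52, adjusted p = 0.0792), and the exception was the pair of 2 weeks and 6 hours, at -0.12. Gsr was 0.30 higher (0.08 to 0.53, adjusted p = 0.277) and Txnrd1 0.28 higher (0.10 to 0.46, adjusted p = 0.201), each in 7 of 9 pairs. For Gclc the difference was 0.14 (-0.04 to 0.32, adjusted p = 0.625) and for Txn1 0.10 (-0.09 to 0.29, adjusted p = 0.78). Gclm differed by 0.06 (-0.10 to 0.21, adjusted p = 0.885) and Gpx1 by 0.01 (-0.15 to 0.16, adjusted p = 0.984). The intervals of Gclm and Gpx1 thus leave room for differences of about 0.2 in favour of the high dose, and no equality was shown. The order of the low-dose and the high-dose sample varied between pairs for every gene.

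**Figure D3:**
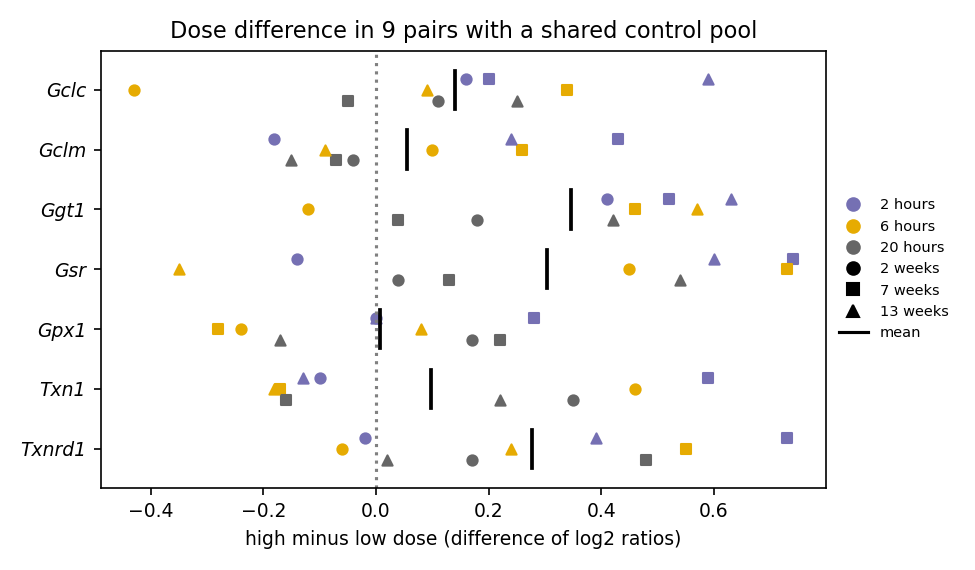
Difference of the log2 ratios, high minus low dose, in each of the 9 pairs that share an air pool, by gene; colours give hours after the last exposure, symbols give weeks of exposure and black bars the mean. For Ggt1 8 of 9 points lie above 0, and for Gclm 4 of 9.

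Over the hours since the last exposure, 4 of the 7 genes changed: Ggt1, Gclc, Txnrd1 and Gclm. The limma F test used the 9 means of the samples sharing an air pool, with weeks as a covariate, and called 1.6% of 3994 genes. Each of the 4 genes was lower at 20 than at 2 hours, beside 0.576% of all genes tested. Gclc fell by 0.82 ± 0.11 on the log2 scale (adjusted p of the F test 0.00514), Ggt1 fell by 0.77 ± 0.10 (0.00302), Txnrd1 fell by 0.75 ± 0.11 (0.00915) and Gclm fell by 0.66 ± 0.13 (0.0299). In those 4 genes all 20-hour samples were below all 2-hour samples, as in 1.26% of the 3560 genes with every value.

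The differences between neighbouring hours were then read for each gene, without a test between genes. Between 2 and 6 hours Gclm fell by 0.70 ± 0.13 (adjusted p = 0.0262), Gclc fell by 0.65 ± 0.11 (adjusted p = 0.0161) and Txnrd1 fell by 0.51 ± 0.11 (adjusted p = 0.0421), where 0.851% of genes were lower. Ggt1 differed by -0.10 ± 0.10 over the same interval (adjusted p = 0.715). Between 6 and 20 hours Ggt1 fell by 0.68 ± 0.10 (adjusted p = 0.00821, beside 0.551% of genes lower), while Txnrd1 differed by -0.24 ± 0.11 (adjusted p = 0.409), Gclc by -0.17 ± 0.11 (adjusted p = 0.582) and Gclm by 0.04 ± 0.13 (adjusted p = 0.939). All 6-hour samples were below all 2-hour samples for Gclc and Gclm, as in 1.4% of genes, and all 20-hour samples were below all 6-hour samples for Ggt1, as in 1.07% of genes. The mean log2 ratio over both doses went from 0.94 to 0.28 and 0.12 for Gclc at 2, 6 and 20 hours, from 0.74 to 0.04 and 0.07 for Gclm, from 0.85 to 0.34 and 0.10 for Txnrd1, and from 1.09 to 1.00 and 0.32 for Ggt1. The excess of Ggt1 over Gclc was 0.16 at 2 hours, 0.71 at 6 hours (present in 6 of 6 samples) and 0.20 at 20 hours, values for which the difference between genes was not tested.

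The other 3 genes did not pass the F test over hours. Gsr differed between 20 and 2 hours by -0.34 ± 0.11 (adjusted p = 0.259), Gpx1 by 0.27 ± 0.09 (adjusted p = 0.243) and Txn1 by 0.07 ± 0.11 (adjusted p = 0.803). Mean log2 ratios at 2, 6 and 20 hours were 0.54, 0.35 and 0.20 for Gsr, 0.09, 0.13 and 0.37 for Gpx1, and 0.42, 0.37 and 0.49 for Txn1. Among the low-dose samples alone none of the 7 passed the F test (adjusted p = 0.116 to 0.13 for the 4 genes, with 18 genes called in all), and the differences between 20 and 2 hours were -0.71 for Gclc, -0.68 for Txnrd1, -0.62 for Ggt1 and -0.54 for Gclm. The Gclm call was also lost in the high-dose samples alone (-0.79, adjusted p = 0.124) and on leaving out either of the combinations at 2 hours after 7 or 13 weeks, any at 20 hours after 2 or 7 weeks, or that of 7 weeks and 6 hours (adjusted p from 0.0666 to 0.112).

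Some markers of other cell types passed the same F test over hours, beside 1.6% of all genes tested, and their part in the results of the 4 genes was not tested. They were 3 of 7 neutrophil markers, S100a8 (adjusted p = 0.000156), S100a9 (0.00325) and Fcnb (0.00528), the macrophage marker Cd14 (0.0385, 1 of 15) and Edn1 (0.0413, 1 of 11 of endothelium and smooth muscle). Mean log2 ratios at 2, 6 and 20 hours were -0.68, 0.77 and 0.26 for S100a8, 0.16, 1.66 and 1.04 for S100a9 and -0.82, 0.24 and -0.39 for Fcnb, each highest at 6 hours, and so were those of Cd14 (0.55, 0.75 and 0.22). Edn1, with 0.81, 0.10 and 0.23, was highest at 2 hours.

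**Figure D4:**
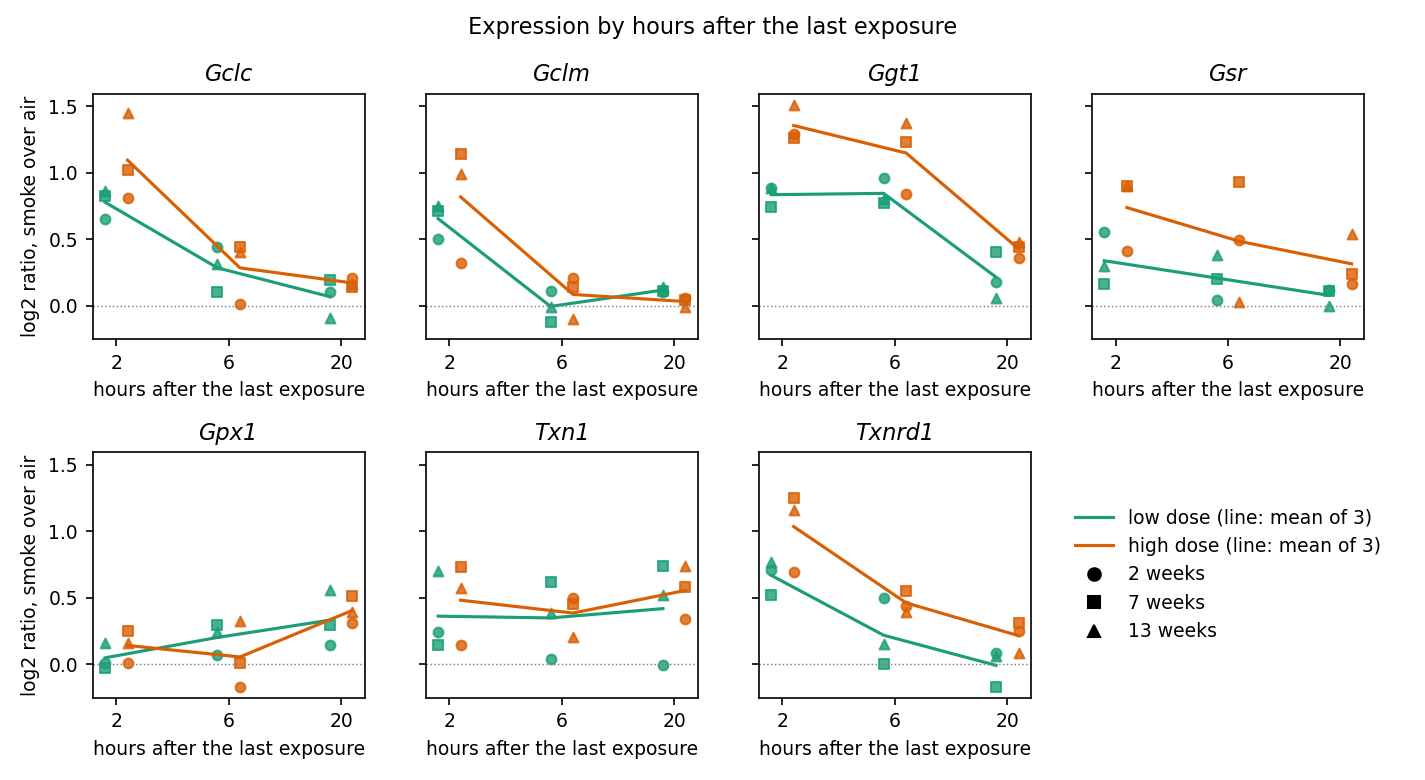
Log2 ratio of smoke over air against hours after the last exposure, 1 panel per gene; symbols are single samples (shape for weeks, colour for dose) and lines join the means of 3 samples of a dose. Gclc, Gclm and Txnrd1 come down between 2 and 6 hours, and Ggt1 between 6 and 20 hours. The means of Txn1 and Gpx1 are higher at 20 than at 2 hours at both doses, though their high-dose lines dip at 6 hours. The means of Gsr are lower at 20 than at 2 hours at both doses, a change that did not pass the F test.

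**Figure D5:**
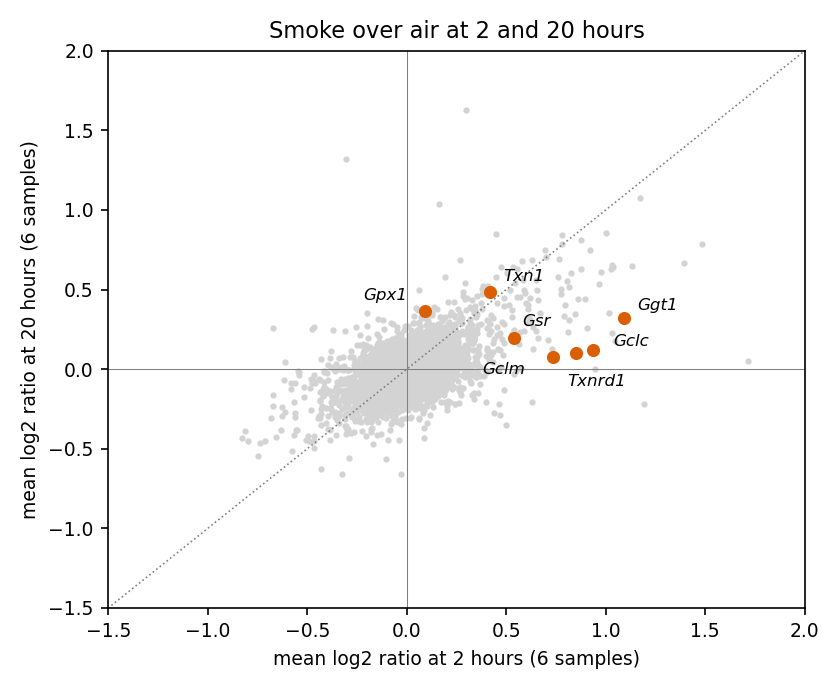
Mean log2 ratio of smoke over air at 20 hours against that at 2 hours, each over 6 samples, for the 3560 genes with every value (grey; 8 lie outside the axes) and the 7 genes (orange); the dotted line marks equal values. Gclc, Gclm, Txnrd1 and Ggt1 lie far below the line, Gsr less so, and Txn1 and Gpx1 lie above it.

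Longer exposure changed none of the 7 genes past the threshold. The limma F test over 2, 7 and 13 weeks called 0.125% of genes, 5 in all, with 232 of 3994 at an unadjusted p under 0.05. Txn1 was the only gene of the 7 with an unadjusted p under 0.05 (adjusted p = 0.736). Its mean log2 ratio was 0.21 after 2 weeks, 0.54 after 7 weeks and 0.52 after 13 weeks. Gpx1 went from 0.06 to 0.22 and 0.31 (adjusted p = 0.876), and its 13-week samples were all above air. The remaining 5 genes had differences between 13 and 2 weeks from -0.01 ± 0.11 for Txnrd1 to 0.15 ± 0.11 for Gclc.

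Whether the dose difference itself depended on time was tested on the 9 pairs. By hours 0% and by weeks 0% of 3994 genes were called by the limma F test, with 140 and 178 at an unadjusted p under 0.05. Of the 7 genes, 0 by hours and 1 by weeks, Txnrd1, were among these. The dose difference of Txnrd1 was 0.56 ± 0.18 larger after 7 than after 2 weeks (adjusted p = 0.96), with pairs of 0.73, 0.55 and 0.48 at 7 weeks against -0.02, -0.06 and 0.17 at 2 weeks, at 2, 6 and 20 hours. At 13 weeks the Txnrd1 pairs were 0.39, 0.24 and 0.02.

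Across the 18 samples the 7 genes ran together to different degrees. Pearson r was 0.877 between Gclc and Txnrd1, 0.855 between Gclm and Txnrd1, 0.853 between Gclc and Gclm and 0.751 between Ggt1 and Txnrd1. Between Gclm and Ggt1 it was 0.449. Gsr had r from 0.555 with Gclm to 0.669 with Txnrd1, and values between these with Gclc and Ggt1. Txn1 had r = 0.016 with its reductase Txnrd1 and 0.424 with Gpx1. Gpx1 had negative r with Gclc, Gclm, Gsr, Ggt1 and Txnrd1, down to -0.464 with Ggt1. These values are descriptions: samples of a combination share an air pool, and the hours since exposure move many genes at the same time.

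The 3 genes with the highest r to each of the 7 were taken from 1461 genes with every value and a standard deviation of at least 0.2 over the 18 samples, with the same limits on reading r. For Gclc these were Eif4ebp1 (0.887), a repressor of translation initiation, Ndrg4 (0.884) and the aldehyde dehydrogenase Aldh3a1 (0.853). Gclm had Ndrg4 (0.888), Eif4ebp1 (0.879) and the glutamine synthetase Glul (0.833), and Txnrd1 had complement C3 (0.864), the quinone reductase Nqo1 (0.835) and Ndrg4 (0.834). For Ggt1 they were the glutathione transferase Gstp1 (0.883), Pir (0.871) and Nqo1 (0.839). Gstp1 also held its ratio from 2 to 6 hours, with means of 0.85, 0.81 and 0.34 at 2, 6 and 20 hours. For Gsr they were the heme oxygenase Hmox1 (0.818), Fetub of the fetuin family (0.788) and the small Maf protein Mafg (0.776). Gpx1 had Tyrobp (0.74), a signalling adaptor of myeloid cells, the actin-binding Tmsb10 (0.73) and Uba3 (0.692), a subunit of the NEDD8-activating enzyme. Txn1 had the Arp2/3 subunit Arpc3 (0.834), Ergic3 (0.833) and the cytochrome c oxidase subunit Cox7b (0.818). The order changed when r was taken over the 9 means of samples that share an air pool. The genes named for Ggt1 then ranked 1, 3 and 4 and those for Gclc 1, 2 and 5, while those for Gsr ranked 8 (Hmox1), 22 (Mafg) and 36 (Fetub). The named genes ranked 3, 11 and 14 for Gclm, 1, 3 and 9 for Txnrd1, 9, 14 and 44 for Gpx1 and 10, 11 and 28 for Txn1.

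Other genes of the same pathways were described from lists, by counts of members past the threshold. For each count without further centring, the background is the share of all genes tested called by the same test. It is 9.56% higher and 7.64% lower at the high dose, 3.51% and 1.44% at the low dose, and 1.6% over hours. Of 13 tested partners in glutathione synthesis, transport, use, conjugation and breakdown, 4 rose at the high dose and 0 fell, with a median log2 ratio of 0.06. They were the microsomal transferases Mgst2 (0.31 ± 0.05, adjusted p = 0.000642) and Mgst1 (0.30 ± 0.06, adjusted p = 0.0061), the amino acid transporter Slc1a5 (0.24 ± 0.06, adjusted p = 0.0169) and the aminopeptidase Anpep (0.20 ± 0.06, adjusted p = 0.0371). At the low dose 2 of the 13 rose, and 0 passed the F test over hours. Centred on the reference genes, which lowers the median of all genes by 0.10 at the high dose, 2 of the 13 rose and 1 fell, and the median became -0.04. On that scale 4.58% of all genes tested were called higher at the high dose and 23.3% lower, which is the background for each reference-centred count at this dose.

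Among 14 tested thioredoxin partners 3 rose and 2 fell at the high dose, beside 9.56% and 7.64% of all genes, and the list's median was 0.09. The peroxiredoxins Prdx1 (0.27 ± 0.06, adjusted p = 0.00727) and Prdx6 (0.26 ± 0.07, adjusted p = 0.0159) and the protein disulfide isomerase P4hb (0.20 ± 0.06, adjusted p = 0.0336) rose. The thioredoxin inhibitor Txnip (-0.24 ± 0.07, adjusted p = 0.0279) and the thioredoxin-like Nxn (-0.18 ± 0.04, adjusted p = 0.0126) fell. None of the 14 passed at the low dose, and over hours Pdia4, a disulfide isomerase of the endoplasmic reticulum, passed the F test (adjusted p = 0.0372) with means of -0.17, 0.33 and -0.20 at 2, 6 and 20 hours. Centred on the reference genes, 0 of the 14 rose and 2 fell at the high dose, beside 4.58% and 23.3% of all genes.

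Of 4 tested genes of NADPH supply, 2 rose at the high dose, the transketolase Tkt (0.34 ± 0.06, adjusted p = 0.00231) and the malic enzyme Me1 (0.29 ± 0.06, adjusted p = 0.00272), and the list's median was 0.22. Tkt also rose at the low dose (0.27 ± 0.06, adjusted p = 0.0162). Centred on the reference genes, 2 of the 4 rose and 1 fell at the high dose. Of 4 tested genes on a list of selenium handling and selenoproteins, Selenof rose at the high dose (0.14 ± 0.05, adjusted p = 0.0454). The list's median was -0.08, and on the reference-centred scale 0 rose and 2 fell.

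The list of NRF2 regulators and other targets had 12 of 19 tested genes higher at the high dose and 11 at the low dose, with 0 lower and medians of 0.36 and 0.32. Of all genes tested, 9.56% were higher at the high dose and 3.51% at the low dose. Centred on the reference genes, 10 and 9 were higher, beside 4.58% of all genes at the high dose and 1.82% at the low dose. Its largest changes at the high dose were those of Aldh3a1 (2.51 ± 0.55, adjusted p = 0.00715), Nqo1 (1.68 ± 0.28, adjusted p = 0.00115), the superoxide dismutase Sod2 (1.17 ± 0.13, adjusted p = 4.45e-05) and the metallothionein Mt1 (0.89 ± 0.08, adjusted p = 4.65e-06), the last 2 of which inflammatory signals and metals are also known to induce. Which regulator acted on any gene of the list, Aldh3a1 and Nqo1 included, was not tested. Over hours 4 of the 19 passed the F test, beside 1.6% of all genes. They were led by Aldh3a1 (adjusted p = 1.19e-08), Nqo1 (5.14e-07) and Hmox1 (0.00223), with Gstp1 as the fourth (0.0353). Mean log2 ratios at 2, 6 and 20 hours were 5.33, 1.95 and 0.32 for Aldh3a1, 2.71, 1.62 and 0.30 for Nqo1 and 1.03, 0.38 and 0.23 for Hmox1. Like Gclc, these 3 genes came down by 20 hours, from higher mean ratios at 2 hours.

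Markers of several cell types moved with the exposure, and their part in the results for the 7 genes was not tested. Of all genes tested, 9.56% rose and 7.64% fell at the high dose, and 3.51% and 1.44% at the low dose. At the high dose 12 of 15 macrophage markers rose (median 0.63) and Adgre1 (-0.72) and Csf1r (-0.19) fell, and the list's median in a sample ranged from 0.36 to 0.80 at 2 hours, 0.32 to 0.83 at 6 hours and 0.16 to 0.75 at 20 hours. All 10 tested lymphocyte markers fell at the high dose and 1 at the low dose (Cd4, -0.28), with medians of -0.49 and -0.12. Of 7 neutrophil markers 3 rose (S100a9, Cxcr2 and Fcgr2a) and 2 fell (Retnlg and Fcnb), and their sample median ranged from -0.69 to 0.41 at 2 hours, 0.04 to 0.76 at 6 hours and -0.17 to 0.65 at 20 hours. Among epithelial markers, 1 of 5 of the airway rose (Foxj1) and 0 fell, and 3 of 8 of the alveoli rose (Sftpa1, Sftpd and Napsa) and 1 fell (Aqp5). Of 11 markers of endothelium and smooth muscle 1 rose (Edn1) and 3 fell (Cdh5, Tek and Kdr). Centred on the reference genes, 4 of 8 alveolar markers and 6 of 11 of endothelium and smooth muscle fell, where 23.3% of all genes fell. Of 11 reference genes Gapdh, Ppia, Rplp0 and Eef1a1 rose (4 genes, median 0.08), and when ratios were centred on the 11 genes 2 still rose, while the counts of the 7 genes became 5 at the high dose and 2 at the low dose. On that scale 4.58% of all genes tested were higher at the high dose and 1.82% at the low dose.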

How the data were processed

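Whole-lung RNA of 18 samples was compared on 2-colour PIQOR arrays, each labelled sample divided over 2 arrays, per the labels. The authors deposited 1 table of log2 ratios with 11994 rows. Sample medians lie between -0.01 and 0.01, so the values appear centred. Scanner, background correction and normalization: not given in the sources used here. Signal over background is unknown. The number of arrays limits the precision.

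Rows that repeat a probe's values were merged and probes of a gene were averaged (133 of 4616 genes, none of the 7, had several). Genes with both doses in at least 6 of 9 combinations were tested, 4016 in all and 3994 over time. Fits used limma 3.58.1 with statmod 1.5.0 in R 4.3.3 (lmFit, eBayes, two-sided), and p-values were adjusted by Benjamini-Hochberg over all genes tested, with a threshold of 0.05. Scripts were tested on simulated data. Python 3.11.15 with pandas 2.3.3 searched promoters, and matplotlib 3.10.9 drew the plots. Combinations served as replicates, with 1 pooled sample each per dose, so p-values rest on the spread between combinations. Against air that spread mixes animals, technique and time. The dose test used differences within an air pool, and the F tests fitted both hours and weeks.

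The 7 genes and all lists were chosen with earlier results of these data known. All 7 are named. Each partner list names up to 4 genes past the threshold at the high dose with the largest change (2 as values where none passed) and up to 3 over hours, and likeness names 3 genes each. Gstp1 over hours goes beyond that limit and was already named for likeness, and cell type markers and reference genes were named after their values were seen. Alternatives covered centring, spread, gene filter, probe handling, prior, an exact sign-flip test, each dose alone, a random block for the air pool, and leaving out each combination, week or hour.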

Additional observations from a re-analysis of the deposited data

Results flagged for a closer look

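For 4 genes the response to smoke differed between the hours since the last exposure by the F test: from 2 to 20 hours Gclc changed by -0.82, Ggt1 by -0.77, Txnrd1 by -0.75 and Gclm by -0.66 on the log2 scale, over 9 means of samples that share an air pool. The F test called 1.6% of all 3994 genes tested, and 0.576% were lower at 20 than at 2 hours. In each of the 4 every 20-hour sample was below every 2-hour sample, as in 1.26% of the 3560 genes with every value. The adjusted p-values are given above.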

How the results depend on the processing

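Over 23 alternatives for each dose against air, Ggt1, Gsr, Txn1 and Txnrd1 stayed past the threshold at the high dose in all 23 and Gclc in 20. Gpx1 passed in 5 and Gclm in 1, the fit with the air pool as a random block (adjusted p = 0.0423). At the low dose Ggt1 passed in 21, Txn1 in 16, Gclc in 11 and Txnrd1 in 1. Over hours Gclc, Ggt1 and Txnrd1 passed in 18 of 19 and Gclm in 12. No direction against air was reversed.

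The count of all genes called at the high dose (691) was 1118 centred on the reference genes (184 higher and 934 lower, against 384 and 307), 322 by the exact sign-flip test, 198 and 268 without the 7-week and 13-week samples, and 278 and 398 without the 2-hour and 20-hour samples. At the low dose (199) it was 0 by the sign-flip test, whose smallest p with 9 samples is 0.00391, and 128, 50 and 33 without the 2-, 7- and 13-week samples. It was 48, 104 and 122 without the 2-, 6- and 20-hour samples, 123 to 193 when 1 combination was left out, and split 73 higher to 146 lower on the reference-centred scale, against 141 and 58. Of the 7 genes 0 were called there by the sign-flip test and without the 2-hour samples, 1 without the 7-week, the 13-week or the 6-hour samples, and 1 to 3 on leaving out 1 combination.

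Between the doses (7) it was 24 over complete genes, 11 with equal spread, 0 by the sign-flip test and without the 7-week or 6-hour samples, 4 without the 13-week and 1 without the 20-hour samples, and 4 to 20 on leaving out 1 combination (most without 13 weeks and 2 hours). Over hours (64) it was 33 in high-dose and 18 in low-dose samples, 148 with the random block and 29 (without 7 weeks and 6 hours) to 70 on leaving out 1 combination, and 0 of the 7 genes passed in low-dose samples. Over weeks (5) it was 2 on the reference-centred scale, in high-dose samples and without hours as a covariate, 3 with equal spread, 1 in low-dose samples and 2 to 8 on leaving out 1 combination. The dose difference by weeks gave 0 to 1.

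Reversals concerned differences that had not passed a test. Between the doses Gpx1 became -0.023 on the reference-centred scale, -0.009 with equal spread, -0.027 without the 7-week and without the 20-hour samples and -0.037 without the 2-hour samples, and Gclm -0.02 without the 7-week samples. From 2 to 13 weeks, the reference-centred scale gave -0.017 for Gclm and -0.03 for Gsr, equal spread -0.0024 for Gsr and -0.019 for Ggt1, high-dose samples 0.083 for Txnrd1, and low-dose samples -0.037 for Gclc, -0.01 for Gsr and -0.093 for Ggt1. Centred on the reference genes, the dose difference from 2 to 20 hours became -0.073 for Txn1, and from 2 to 13 weeks 0.13 for Gpx1. On leaving out 1 combination, ranges that crossed 0 were -0.0275 to 0.0425 for Gpx1 between the doses, -0.0137 to 0.155 for Txn1 over hours, and -0.12 to 0.22 for Gclm and -0.134 to 0.0775 for Txnrd1 over weeks. For the dose difference by hours they were -0.12 to 0.14 for Gpx1, -0.43 to 0.0883 for Gsr and -0.25 to 0.38 for Txn1, and by weeks -0.15 to 0.15 for Gclm, -0.20 to 0.15 for Gpx1 and -0.12 to 0.59 for Gsr. The cause of these changes was not tested. No paired analysis by replicate number was possible because each condition has 1 sample, and the dose comparison already pairs samples by air pool.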
